A study of Rattus norvegicus and Mus musculus with 34 samples.

Results

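Osteoblast differentiation and mineralization genes were followed in healing jaw bone of rats with and without their sensory nerve. The genes were Runx2, Sp7, Dlx5, Alpl, Ibsp, Bglap and Spp1, taken by their symbols, and all 7 of 7 were found among the 20022 genes of the rat tables. The samples came from young (weeks-old) wild-type male Sprague-Dawley rats in which a standardized bone defect had been made beside the teeth on the cheek side of the mandible. In the sensory nerve+ group the inferior alveolar nerve, the sensory nerve of the lower jaw, was left intact, and in the sensory nerve- group a segment of it was removed. Tissue from within the defect, labelled as mixed cells, was collected at 3, 7 and 14 days. There were 3 rats with an intact nerve at day 3 and 4 rats in each of the other 5 groups, 23 rats in all, and all rats had received penicillin in the first days after surgery. The sensory nerve- rats of day 7 were deposited in a table of their own, so at that day a difference between tables and the transection cannot be told apart. The comparisons address whether these genes differ with transection at each day and how they move over the healing period.

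Osteoblasts arise from mesenchymal precursors under a cascade of transcription factors. Runx2 commits precursors to the lineage, Sp7 (osterix) acts downstream of Runx2 and is needed for mature osteoblasts, and Dlx5 is a homeodomain factor that acts on several genes of the lineage, Runx2 among them. Alpl encodes tissue-nonspecific alkaline phosphatase, which hydrolyses pyrophosphate, an inhibitor of mineralization. Ibsp (bone sialoprotein), Bglap (osteocalcin) and Spp1 (osteopontin) encode secreted matrix proteins. Osteocalcin is made late, by mature osteoblasts, and osteopontin is also made by macrophages, osteoclasts and other cells.

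The 250 bases before the annotated start of 4 of the genes are shown because they hold the letters that bear on the order of this cascade, or because the genes are neighbours that differed in their pattern. RefSeq entries on GRCr8 were matched for 5 of the 7 genes, with 6 starts in all, and Sp7 and Dlx5 had no entry. Capitals mark the core letters bound by RUNX factors, TGTGGT or its complement ACCACA, and the letters of a TATA box, TATAAA or its complement TTTATA.
Bglap, chr2:176137319-176137568, minus strand: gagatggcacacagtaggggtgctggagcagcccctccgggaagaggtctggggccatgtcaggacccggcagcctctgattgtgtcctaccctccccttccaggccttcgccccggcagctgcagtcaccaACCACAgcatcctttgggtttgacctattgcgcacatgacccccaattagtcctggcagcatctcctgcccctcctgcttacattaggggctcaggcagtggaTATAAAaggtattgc
Runx2, upstream start, chr9:23664808-23665057, plus strand: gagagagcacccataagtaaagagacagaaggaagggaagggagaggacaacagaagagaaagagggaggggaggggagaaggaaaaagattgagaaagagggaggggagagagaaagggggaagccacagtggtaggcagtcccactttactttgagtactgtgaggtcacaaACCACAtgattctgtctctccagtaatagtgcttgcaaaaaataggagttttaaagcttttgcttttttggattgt
Ibsp, chr14:5757243-5757492, minus strand: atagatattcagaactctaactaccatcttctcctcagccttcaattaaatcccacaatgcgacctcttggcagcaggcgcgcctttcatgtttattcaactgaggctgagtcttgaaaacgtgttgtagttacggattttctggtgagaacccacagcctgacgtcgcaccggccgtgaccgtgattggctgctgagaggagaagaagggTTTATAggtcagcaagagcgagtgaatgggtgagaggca
Spp1, chr14:5619805-5620054, minus strand: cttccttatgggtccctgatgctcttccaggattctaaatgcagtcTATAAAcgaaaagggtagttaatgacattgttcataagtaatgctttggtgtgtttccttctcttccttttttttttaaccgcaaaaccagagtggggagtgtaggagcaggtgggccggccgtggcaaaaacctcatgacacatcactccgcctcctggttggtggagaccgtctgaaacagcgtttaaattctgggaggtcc

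The RUNX core stood once in the Bglap window, with its first base at position -118 from the start, and once in the window of the upstream Runx2 start, at position -76. It was in 14.5% of the 33469 RefSeq promoter windows of the same length. TATA box letters were found at position -15 in Bglap, -39 in Ibsp and -204 in Spp1, against 12.9% of all windows. The window of the other Runx2 start held 1 GC box (GGGCGG on either strand, the letters bound by SP-family factors) and that of Alpl held 4, and 30.5% of all windows held at least 1. The homeodomain letters TAATTA, found in 4.86% of all windows, were in none of the 6. These matches describe the sequence only. On chromosome 14 the order of neighbouring protein-coding genes was Spp1, Mepe, Ibsp, Dmp1 and Dspp, a cluster of genes for acidic matrix proteins of bone and tooth.

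The deposited values were expected counts per gene, between 14854389 and 18742274 per rat. Levels are given as CPM, counts scaled to a common library size, after TMM normalization, which equalizes libraries on the bulk of their genes, and are not corrected for gene length, so they are compared between rats and not between genes. Each gene was counted in each of the 23 rats, from a lowest value of 16 counts (Bglap) to a highest of 277794 (Spp1), and all 7 passed the filter on low counts in every comparison. The tissue was not pure healing bone. The summed level of 8 enamel and dentin markers exceeded 100 CPM in 8 rats, between 127 and 23129 CPM, and stayed at or below 23.5 CPM in the other 15. These 8 rats were 2 of 3 and 2 of 4 at day 3 (intact and transected), 2 of 4 and 1 of 4 at day 7, and 0 of 4 and 1 of 4 at day 14. Of the 8 markers, each was at 0 counts in at least 5 rats. Skeletal muscle markers summed to between 19.6 and 464 CPM at day 3 and reached 34095 CPM at day 7. Because RNA was taken from whole tissue, fewer cells of a type and less RNA per cell cannot be told apart in any value below.

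**Figure D1:**
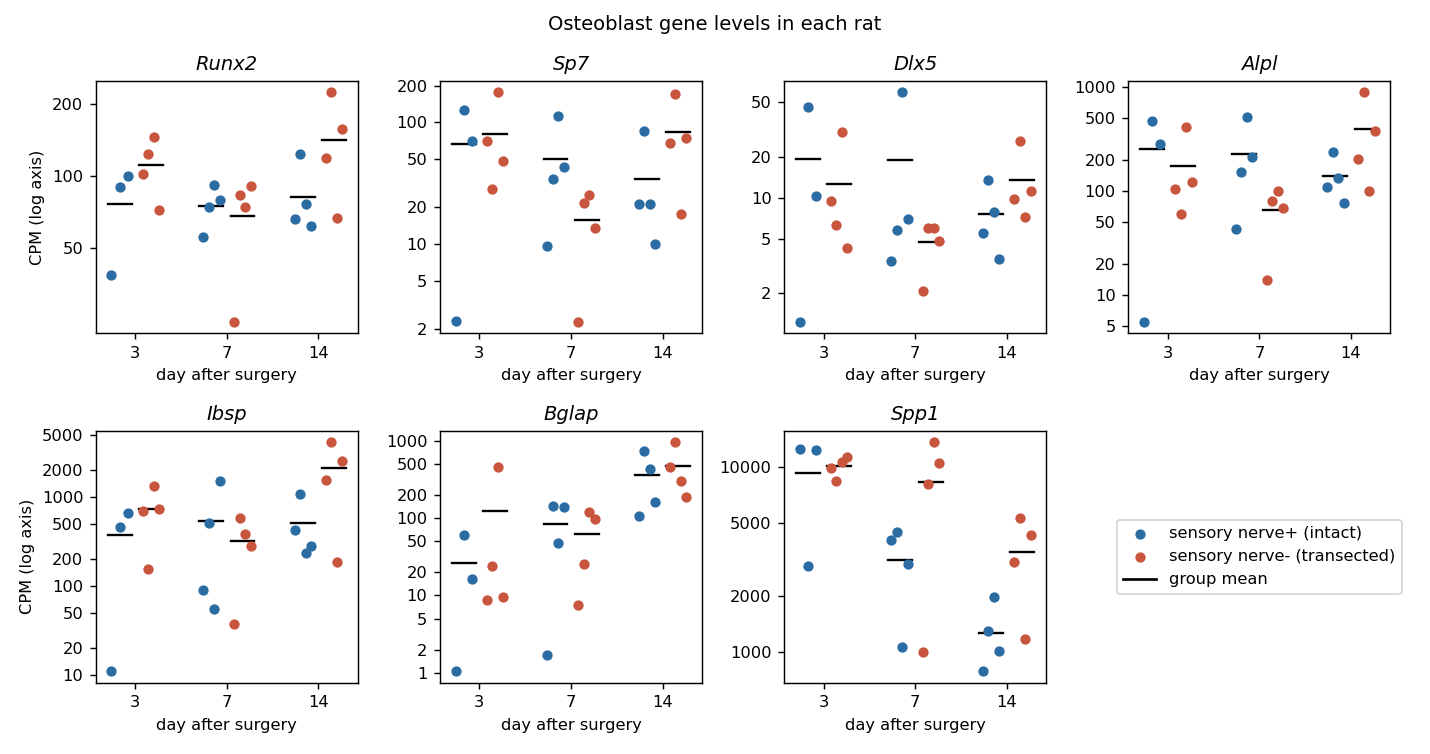
Level of each gene in every rat, in CPM on a log axis, by day after surgery and nerve state; each point is 1 rat and the bar is the group mean. Spp1 was at 8370 CPM or more in the 4 transected rats of day 3 and at 1975 CPM or less in the 4 intact rats of day 14, while Sp7, Alpl and Ibsp spread widely within most groups.

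The regulators were present from day 3 on. Runx2 had the narrowest range as a ratio, 9.15 between its highest and lowest rat, from 24.5 CPM in a transected rat of day 7 to 224 CPM in a transected rat of day 14. Its means with an intact nerve were 76.0 ± 32.9 (SD, n = 3), 75.1 ± 15.04 (n = 4) and 81.7 ± 28.4 CPM (n = 4) at days 3, 7 and 14. With the nerve transected they were 111 ± 31.6, 68.0 ± 29.8 and 141 ± 66.4 CPM (n = 4 each). None of the 5 steps between neighbouring group means of Runx2 exceeded the larger of the SDs on either side.

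Sp7, which marks committed osteoblasts, varied far more from rat to rat. With an intact nerve it stood at 2.35, 126 and 70.8 CPM at day 3, at 9.61, 34.3, 113 and 43.1 CPM at day 7, and at 21.5, 84.2, 21.3 and 9.98 CPM at day 14. With the nerve transected it stood at 70.7, 28.5, 176 and 48.3 CPM at day 3, at 2.31, 21.7, 25.3 and 13.4 CPM at day 7, and at 68.1, 171, 17.7 and 74.0 CPM at day 14. The transected rats of day 7 all lay below the transected rats of day 3, and all other pairs of groups compared overlapped. Dlx5 was low throughout, with a median of 7.03 CPM over the 23 rats. It ranged from 1.24 CPM in the intact rat of day 3 with the lowest Sp7 of its group to 58.8 CPM in an intact rat of day 7.

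Alpl, the mineralization enzyme, followed Sp7 closely. In the intact rats it was 5.56, 465 and 282 CPM at day 3, 42.7, 152, 508 and 211 CPM at day 7, and 109, 238, 132 and 76.8 CPM at day 14. In the transected rats it was 104, 60.2, 409.5 and 122 CPM at day 3, 14.0, 79.9, 101 and 68.5 CPM at day 7, and 201, 881, 99.6 and 378 CPM at day 14. The lowest group mean, 65.7 ± 36.9 CPM (n = 4), was that of the transected rats of day 7. Of the steps upward from it, only the first, to 139 ± 70.0 CPM (n = 4) in the intact rats of day 14, exceeded the larger of the 2 SDs.

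Among the matrix genes, Ibsp had no clear order of groups, and 0 of its 5 steps between neighbouring means exceeded the SDs. At day 14 it was 425, 1087, 232 and 278 CPM in the intact rats and 1542, 4105, 184 and 2495 CPM in the transected rats. In 3 of the 4 transected rats it was above every intact rat, and in the fourth it was below every one. At day 7 its ranges were 55.1 to 1491 CPM (intact) and 37.5 to 585 CPM (transected).

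Bglap, the late marker, had its highest group mean at day 14 in both arms, and its lowest at day 3 in the intact and at day 7 in the transected arm. The intact rats had 1.05, 61.0 and 16.4 CPM at day 3, 1.72, 143, 47.0 and 139.7 CPM at day 7, and 107, 749, 435 and 162 CPM at day 14. The transected rats had 8.71, 23.9, 457 and 9.48 CPM at day 3, 7.53, 25.8, 121 and 97.1 CPM at day 7, and 453, 959.8, 306 and 186 CPM at day 14. In both arms the day 14 rats stood above nearly all earlier ones. The exceptions were 2 intact rats of day 7, which stood above the lowest intact rat of day 14, and 1 transected rat of day 3, which stood above 3 of the 4 transected rats of day 14. That transected rat had an enamel and dentin marker sum of 11791 CPM, and the part of tooth tissue in its Bglap level was not tested.

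The group mean of Spp1 was highest at day 3 and lowest at day 14 in both arms. The highest single rat, and the lowest of the transected arm, were of day 7. In the intact rats it was 12520, 2933 and 12360 CPM at day 3, 4040, 4426, 1061 and 3000 CPM at day 7, and 789, 1309, 1975 and 1018 CPM at day 14. In the transected rats it was 9792, 8370, 10640 and 11350 CPM at day 3, 999, 8110, 13570 and 10540 CPM at day 7, and 3063, 5299, 1175 and 4266 CPM at day 14. All day 14 rats lay below all day 3 rats of the same arm. The group means ran from 1273 ± 514 CPM (intact, day 14, n = 4) through 3132 ± 1506 (intact, day 7, n = 4), 3451 ± 1771 (transected, day 14, n = 4), 8305 ± 5358 (transected, day 7, n = 4) and 9271 ± 5489 (intact, day 3, n = 3) to 10038 ± 1281 CPM (transected, day 3, n = 4). Only the lowest of these 5 steps was larger than the SDs of the groups it joins.

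Transection was tested at each day on the rats of that day, by the quasi-likelihood method of edgeR, with p-values adjusted over all genes tested after Benjamini and Hochberg. At day 3, 0 of the 7 genes passed an adjusted p of 0.05, as did 0% of the 14695 genes tested. The median log2 fold change of the 7 (transected over intact) was 0.26, against -0.01 over all genes, and 5 of the 7 were above 0, as were 48.1% of all genes. Bglap had the largest value, 2.24 (SE 1.85), and Alpl and Dlx5 were below 0, at -0.55 (SE 1.21) and -0.64 (SE 1.14). Their signs turned when the intact rat with the highest Alpl and Dlx5 was left out, and that of Bglap when the transected rat with 457 CPM was left out, to -0.96. Unadjusted p was above 0.05 for all 7, and below it for 0.83% of all genes.

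At day 7 the genes of the lineage were lower after transection in 6 of 7 cases (51.2% of all genes were lower), without passing the test. Again 0 of 7 passed an adjusted p of 0.05, against 0% of 14716 genes, and all 7 had an adjusted p of 0.9997. Median log2 fold change was -0.74 for the 7 and -0.01 for all genes. Log2 fold changes were -2.03 (SE 0.93) for Dlx5, -1.82 (SE 0.79) for Alpl and -1.70 (SE 0.84) for Sp7, -0.74 (SE 1.08) for Ibsp, -0.39 (SE 1.15) for Bglap and -0.16 (SE 0.37) for Runx2, and 1.42 (SE 0.78) for Spp1, the only one above 0. By edgeR Alpl alone had an unadjusted p under 0.05 (0.0493), as 1.46% of all genes had. By DESeq2 the unadjusted p was 0.0156 for Alpl, 0.0353 for Sp7 and 0.0406 for Spp1, with an adjusted p of 0.9997 for each. For all 7 the ranges of the groups overlapped; 0.754% of genes had groups without overlap. The intact rat with 508 CPM of Alpl and 58.8 CPM of Dlx5 had 799 CPM of enamel and dentin markers, and the transected rat with the lowest Alpl had 34095 CPM of muscle markers. Without the former rat the value of Dlx5 was -0.20 and that of Alpl was -1.04. Marker lists of other cells had either sign at this day. Macrophage markers were higher after transection in 7 of 7 (median log2 fold change 0.72) and osteoclast markers in 7 of 7 tested (median 1.16). Enamel and dentin markers were lower in 4 of 4 tested (median -2.805), cartilage markers in 4 of 4 tested (-1.87) and muscle markers in 8 of 8 (-0.25). By edgeR 0 of these markers passed an adjusted p of 0.05. The part of these tissues and cells in the values was not tested.

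At day 14 the direction was the other way for all but Spp1. All 7 genes were higher in the transected rats, where 53.4% of all genes were, but 0 of 7 passed an adjusted p of 0.05, against 0% of 14610 genes. The median log2 fold change was 1.27, against 0.03 over all genes. The values were 2.03 (SE 0.86) for Ibsp, 1.48 (SE 0.66) for Alpl, 1.42 (SE 0.50) for Spp1, 1.27 (SE 0.79) for Sp7, 0.83 (SE 0.51) for Dlx5, 0.78 (SE 0.37) for Runx2 and 0.40 (SE 0.70) for Bglap. Unadjusted p was 0.0209 for Spp1 and 0.0461 for Ibsp, in a comparison where 9.32% of all genes were under 0.05, and the smallest adjusted p was 0.519. Of the 7 genes 0 had groups without overlap, against 3.37% of all genes. Leaving out single rats moved the values to between 0.62 and 2.14 for Sp7, 0.68 and 1.78 for Alpl, 0.29 and 1.18 for Dlx5, 1.45 and 2.63 for Ibsp and 0.46 and 0.98 for Runx2. The lowest of each came without the transected rat with 881 CPM of Alpl, and the highest, for all but Runx2, without the intact rat with 1087 CPM of Ibsp. For Spp1 the values lay between 1.13 and 1.72. For Bglap they lay between -0.21 and 0.95, and the sign turned in 1 case. DESeq2 too called 0 of the 7 at days 3, 7 and 14, and gave no adjusted p for Bglap at day 3 and Dlx5 at day 7. One transected rat, the one with 184 CPM of Ibsp, had levels of Alpl, Ibsp and Spp1 within or below the intact range, and its hemoglobin and other erythroid markers summed to 787582 CPM. That sum is raised by a low TMM factor, 0.496, and the hemoglobin gene Hba-a1 was 23.4% of this rat's counts before scaling. The TMM factors behind the CPM were 0.981 to 1.256 in the intact and 0.496 to 1.169 in the transected rats of day 14. Other cell types moved in the same comparison. Skeletal muscle markers were lower after transection in 8 of 8 cases (median log2 fold change -2.67), with sums of 260 to 23916 CPM in the intact and 229 to 6333 CPM in the transected rats. Schwann cell markers were lower in 6 of 6 (median -2.23, 5 with an unadjusted p under 0.05), with sums of 286 to 2733 CPM and 144 to 301 CPM. Osteoclast markers were higher in 7 of 7 tested (median 1.70, 6 with an unadjusted p under 0.05). Osteocyte markers were higher in 4 of 4 tested (median 2.09, 4 with an unadjusted p under 0.05). Macrophage markers were higher in 7 of 7 (median 0.63), erythroid markers in 5 of 5 (median 1.97) and cartilage markers in 4 of 5 tested (median 1.60). Of the markers in these lists 0 passed an adjusted p of 0.05 by edgeR, and their part in the values of the 7 genes was not tested.

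**Figure D2:**
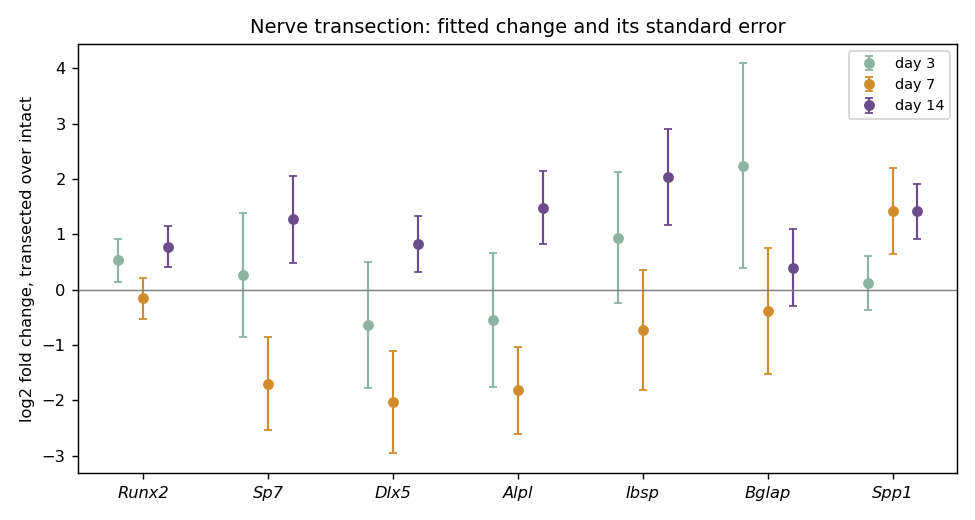
Fitted log2 fold change of each gene, transected over intact, at days 3, 7 and 14; bars are standard errors, and above 0 means higher after transection. At day 7 the points of 6 genes are below 0, and at day 14 all 7 are above 0 (0.40 to 2.03); no gene passed an adjusted p of 0.05 at any day.

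Over the 3 days together, in a fit of day and nerve to all 23 rats, 0 of 7 genes passed an adjusted p of 0.05 for transection, against 0% of 15858 genes. Spp1 came nearest, with a log2 fold change of 1.03 (SE 0.38), an unadjusted p of 0.0139 (5.11% of all genes were under 0.05) and an adjusted p of 0.86. It was above 0 at each day and lay between 0.90 and 1.15 when single rats were left out. Whether the effect of transection differed between days was tested as an interaction over the 23 rats. Unadjusted p ranged from 0.0728 (Alpl) to 0.407 (Bglap), and adjusted p was 0.998 for all 7. Of all genes 0% passed and 3% were under 0.05 unadjusted. This test takes the 3 days together, and the effect at day 7 was not tested against that at day 14 alone. The opposite signs at those days are therefore described and not shown to differ.

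The wider set of osteoblast genes, listed by role, was mostly higher after transection at day 14. Of 10 tested regulators, all 10 were higher after transection (median log2 fold change 0.72), of 9 mineralization enzymes, transporters and inhibitors 6 were, and of 12 matrix genes 9 were, against 53.4% of all genes. By edgeR 0 passed an adjusted p of 0.05, as did 0% of all genes. An unadjusted p under 0.05 was found for 0 of the regulators, for 4 of the mineralization genes (3 higher and 1 lower) and for 2 of the matrix genes, and for 9.32% of all genes. The lower one was Slc20a2, a phosphate transporter, at -0.97 (SE 0.40), named at this day after its values were seen. The smallest p-values in the last 2 groups were those of Dmp1, an osteocyte and dentin matrix protein, at 2.06 (SE 0.53), Phospho1, a phosphatase of matrix vesicles, at 1.05 (SE 0.28), Enpp1, which makes pyrophosphate, at 0.55 (SE 0.16), Mepe at 2.59 (SE 0.78) and Phex, an endopeptidase of osteoblasts and osteocytes, at 2.13 (SE 0.66), all with adjusted p = 0.519 by edgeR. Phospho1 at day 14 was 107, 63.8, 101 and 90.5 CPM in the intact rats. In the transected rats it was 135, 157, 284 and 179.5 CPM. The rat with 284 CPM had 184 CPM of Ibsp and the highest erythroid marker sum of the 23 rats, 787582 CPM. The rat with 157 CPM had the lowest, 1711 CPM. The part of blood cells in the Phospho1 level was not tested. At day 7 the signs were mostly negative, in 8 of 10 regulators, 6 of 9 mineralization genes and 9 of 12 matrix genes, against 51.2% of all genes, with 0 of the set and 0% of all genes called. Dlx6, the partner of Dlx5 in the genome and a homeodomain factor too, was at -1.57 (SE 0.68) and Slc20a2 at -2.44 (SE 1.02). Dlx6 was 29.2 CPM in the intact rat with 799 CPM of enamel and dentin markers, and 9.915 CPM or less in the other intact rats of that day. Its change without that rat was not tested.

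Change with time was tested within each arm. These comparisons share rats with each other and with the tests of transection, so their values are given side by side and not as independent results. Spp1 was the only one of the 7 genes to pass. It fell from day 3 to day 14 by 2.83 on the log2 scale (SE 0.58) in the intact rats, with an adjusted p of 0.0427, and by 1.59 (SE 0.44) in the transected rats, with an adjusted p of 0.034, by edgeR. In the intact arm 5.78% of 15065 genes passed, 3.09% falling, and in the transected arm 23.5% of 14449 genes passed, 14.6% falling. The groups of Spp1 did not overlap in either arm, as 13.8% of genes did not in the intact and 16.1% in the transected arm in that direction. The difference between the arms was not tested apart from the interaction above. The call was lost when single rats were left out, in 5 of 7 cases in the intact arm and in 6 of 8 in the transected arm, though the change stayed between -3.26 and -2.57 and between -1.88 and -1.31. The rats whose loss ended it were replicates 1 and 3 of day 3 and 1, 3 and 4 of day 14 with an intact nerve, and all 4 of day 3 and replicates 1 and 4 of day 14 with a transected nerve. With DESeq2 the adjusted p values were 1.14e-05 and 0.00115.

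Between days 3 and 7, 0 of the 7 genes passed by edgeR in either arm. Since the transected rats of day 7 are in a table of their own, the table and the step into or out of day 7 cannot be told apart in the transected arm. In the intact rats 6.67% of 15016 genes passed, and the 7 genes had 4 positive and 3 negative values, where 54% of all genes were positive, Spp1 the lowest at -1.53 (SE 0.67, adjusted p = 0.213). In the transected rats 10.5% of 14576 genes passed, 6.77% falling, and all 7 values were negative, where 51.2% of all genes were, with a median of -1.19. Sp7 was lowest, at -2.39 (SE 0.79, adjusted p = 0.0908 by edgeR and 0.00974 by DESeq2), and its groups did not overlap, which held for 12.5% of genes in that direction. Dlx5 was at -1.45 (SE 0.66) and Alpl at -1.44 (SE 0.73).

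From day 7 to day 14, again across the 2 tables, 6 of the 7 genes were higher in the transected rats, where 49.2% of all genes were. The values were 2.92 (SE 0.88) for Bglap, 2.69 (SE 0.99) for Ibsp, 2.57 (SE 0.78) for Alpl, 2.40 (SE 0.81) for Sp7, 1.52 (SE 0.48) for Dlx5 and 1.06 (SE 0.47) for Runx2. The median over the 7 was 2.40, Spp1 was at -1.27 (SE 0.78), and the first 5 had an unadjusted p under 0.05, as 23.5% of genes had and 12.5% in the upward direction. By edgeR 0 of 7 passed, with adjusted p from 0.126 to 0.164 for those 5, against 0.0138% of 14447 genes. DESeq2 called those 5, with adjusted p from 0.00505 to 0.024, in a test that called 1991 genes. The day 7 and day 14 groups of Bglap and Dlx5 did not overlap, against 5.82% of genes in that direction. In the intact rats, for the same step, edgeR called 0 of the 7 genes, against 0.0202% of 14867 genes, and DESeq2 called 0 of the 7 and 325 genes in all. Sp7, Dlx5, Alpl and Ibsp were below 0 there, from -1.32 (SE 0.94, Dlx5) to -0.06 (SE 1.00, Ibsp), Bglap was at 2.16 (SE 1.11) and Spp1 at -1.27 (SE 0.49, adjusted p = 0.503).

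**Figure D3:**
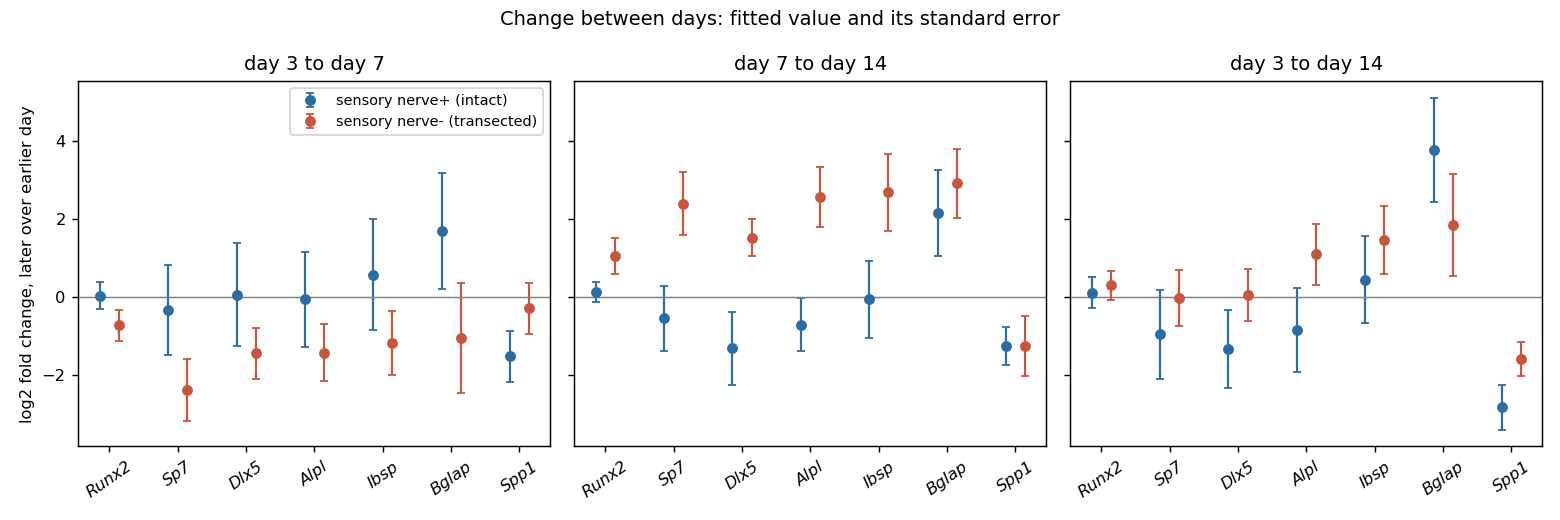
Fitted log2 fold change between days for each gene in the intact and the transected arm, later over earlier day, with standard errors. Spp1 was below 0 in every panel and arm, and between days 7 and 14 the other 6 genes were at 1.06 to 2.92 in the transected arm.

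Bglap had the largest positive values of the 7 genes over the whole period, without passing the adjusted test by edgeR. From day 3 to day 14 its log2 fold change in the intact arm was 3.78 (SE 1.35, unadjusted p = 0.026, adjusted p = 0.124), the groups did not overlap, as in 10.7% of genes in that direction, and DESeq2 gave an adjusted p of 0.0039. In the transected arm it was 1.86 (SE 1.32, adjusted p = 0.327). Over the same period Runx2 was at 0.11 (SE 0.39) and 0.30 (SE 0.37), and Sp7 at -0.96 (SE 1.15) and -0.03 (SE 0.72), in the intact and transected arms.

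In the wider set some genes passed over time, in comparisons where many genes did. In the transected rats, between days 3 and 14, Phospho1 rose by 2.50 (SE 0.45, adjusted p = 0.00936), Phex by 4.18 (SE 0.83, adjusted p = 0.0123), Ifitm5, a membrane protein of osteoblasts, by 2.08 (SE 0.61, adjusted p = 0.0412) and Mepe by 4.65 (SE 1.10, adjusted p = 0.0211), all on the log2 scale by edgeR. Fn1, the fibronectin of early repair matrix, fell by 1.65 (SE 0.27, adjusted p = 0.00582). That is 3 of 9 mineralization genes and 2 of 12 matrix genes, and 0 of 11 regulators, where 23.5% of all genes passed. Erythroid markers were higher in 5 of 5 in the same comparison (median log2 fold change 2.69), with 0 of them passing. The part of blood cells in the rise of Phospho1 was not tested. In the intact rats Enpp1 fell by 1.16 (SE 0.14, adjusted p = 0.0258) and Fn1 fell by 1.70 (SE 0.38, adjusted p = 0.0495), and Dcn, a small proteoglycan, rose by 1.15 (SE 0.23, adjusted p = 0.0349) between days 3 and 7. Those are 2 genes of the wider set where 5.78% of all genes passed, and 1 where 6.67% did, so nothing particular to the set is read from them.

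The 6 genes other than Spp1 varied together from rat to rat. After each group's mean was taken out, Pearson's r of log2 CPM over the 23 rats lay between 0.45 (Dlx5 and Ibsp) and 0.97 (Sp7 and Alpl) for the 15 pairs, with a median of 0.76. For the 6 pairs with Spp1 it lay between -0.16 (Dlx5) and 0.48 (Runx2), with a median of 0.14. The points share libraries and tissue makeup, and these values are descriptions. The SD within groups on the log2 scale was 0.62 for Runx2, 1.04 for Spp1, 1.38 for Dlx5, 1.65 for Sp7, 1.66 for Alpl, 1.95 for Ibsp and 2.21 for Bglap, against a median of 0.42 over 15858 genes. Bglap varied more within groups than 99.0% of genes.

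**Figure D4:**
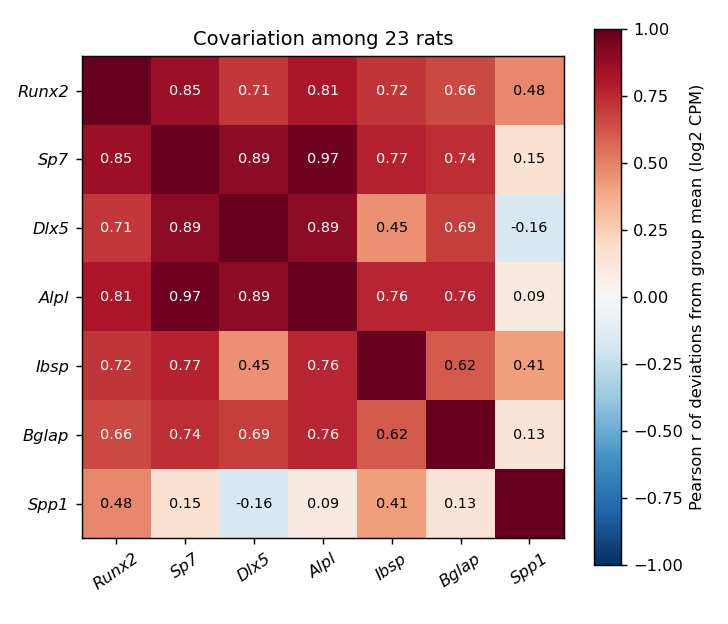
Pearson correlation between the 7 genes of their deviations from the group mean (log2 CPM, 23 rats), with red for positive and blue for negative values. Sp7, Alpl and Dlx5 form the tightest block (0.89 to 0.97), and the row of Spp1 lies between -0.16 and 0.48.

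Among the genes most like the mean pattern of the 7 over the 23 rats, of 15851 genes ranked, were Map3k21 (r = 0.95), Bmp8a (0.94), Pard6g (0.93) and Chst13 (0.91). For 6 of the 7 genes the nearest gene was Aspg for Runx2 (0.90), Dlx6 for Dlx5 (0.97), Smad9 for Alpl (0.93), Entpd3 for Ibsp (0.95), Col13a1 for Bglap (0.93) and Glmp for Spp1 (0.97). Dlx6 ranged from 1.70 to 29.2 CPM, with its highest value in the same intact rat of day 7 as Dlx5.

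Neighbouring genes of the cluster on chromosome 14 did not share 1 pattern over the days. Mepe, an osteocyte protein, was at 0.428 to 17.5 CPM in every rat of days 3 and 7. At day 14 it was 17.3, 45.8, 28.3 and 12.4 CPM in the intact rats and 198, 165, 14.5 and 256 CPM in the transected rats. Dmp1 at day 14 was 112, 150, 128 and 62.0 CPM in the intact rats and 629, 418, 116 and 751 CPM in the transected rats. In both, 3 of 4 transected rats stood above every intact rat, as for Ibsp and Spp1. The same held for the osteoclast marker Acp5 and the macrophage marker Cd68, which are not among these neighbours. The share of all genes with this split was not counted. Dspp, the dentin gene, was under 1 CPM in 15 of 23 rats and reached 344 CPM in an intact rat of day 3.

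Marker sums of other cells moved with these levels. After the group means were taken out, r with the enamel and dentin sum (log2, 23 rats) was 0.72 for Bglap, 0.64 for Dlx5, 0.63 for Alpl and Sp7, 0.51 for Runx2, 0.34 for Ibsp and -0.03 for Spp1. With the muscle sum it was -0.66 for Runx2 and between -0.51 and -0.24 for the others. Spp1 instead went with the macrophage sum (7 of 7 markers detected in the table, r = 0.88) and the osteoclast sum (7 of 8 in the table, r = 0.69), and the osteoclast sum also went with Ibsp (r = 0.68) and Runx2 (0.60). The macrophage sum weighs Gpnmb above its other markers. Gpnmb was 9456 of 11450 CPM in transected replicate 3 of day 7, and 346 of 1265 CPM in intact replicate 2 of day 14. The correlation of Spp1 with each macrophage marker by itself was not computed. With the epithelium sum (5 of 7 markers in the table) r was 0.81 for Dlx5, 0.71 for Alpl, 0.66 for Sp7 and 0.58 for Bglap, and with the cartilage sum it was between 0.42 (Bglap) and 0.75 (Ibsp) for the 6 genes and 0.28 for Spp1. Macrophage markers summed to 1205 to 1579 CPM in the intact and 1209.6 to 2633 CPM in the transected rats of day 14, and osteoclast markers to 1477 to 3388 CPM and 1182 to 12559.5 CPM. The osteocyte sum (Sost, Dmp1, Mepe, Phex, Fgf23) went with all but Spp1, with r between 0.65 and 0.84. The part of each cell type in these levels was not tested.

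**Figure D5:**
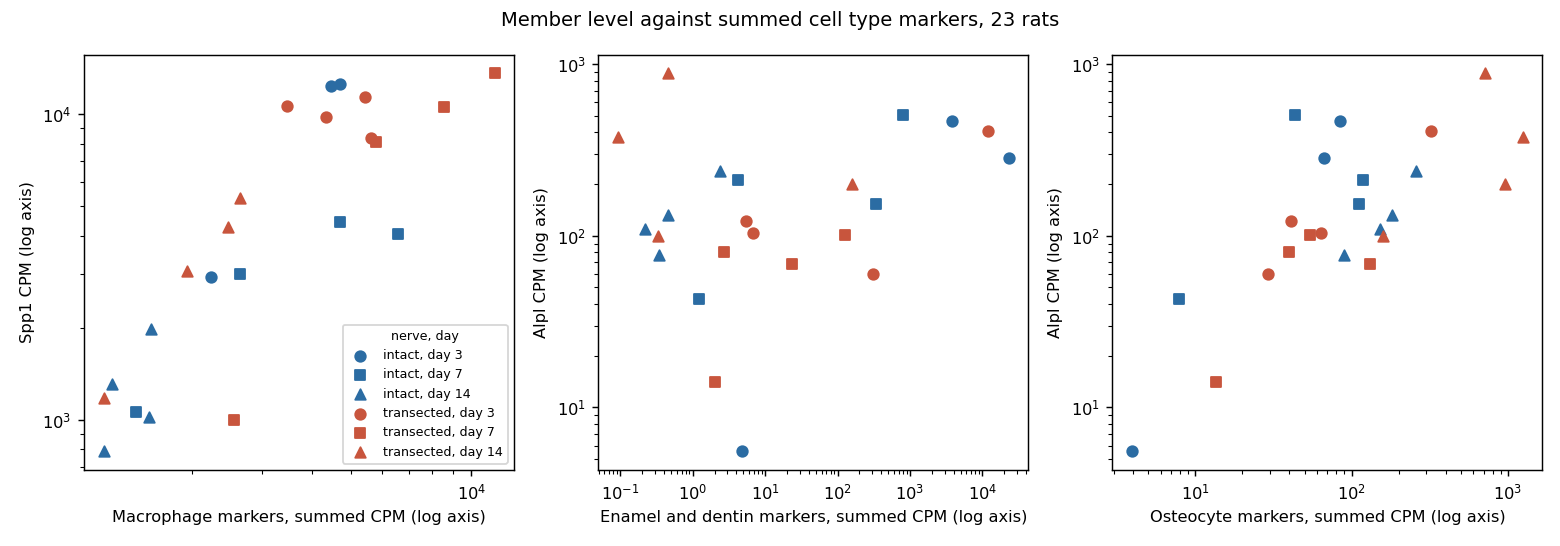
Level of a gene against the summed CPM of a marker list in each of 23 rats, both axes logarithmic; colour gives the nerve state and shape the day. Spp1 is higher in rats with a higher macrophage sum, and Alpl is lowest (5.56 and 14.0 CPM) in rats with a low osteocyte sum.

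When the 8 rats over 100 CPM of enamel and dentin genes were left out and the other 15 rats fitted together, a choice made after seeing the data, 0 of the 7 genes passed in any comparison, the fall of Spp1 included (adjusted p = 0.0567 and 0.218, log2 fold change -3.29 and -1.63). The day 14 values of transection stayed above 0 for all 7 genes. At day 3 this leaves 1 intact rat, which is assumed to vary like the other groups.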

How the data were processed

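RNA from healing tissue of 23 rats was sequenced from mRNA libraries on the DNBSEQ platform. Per the labels and the study's methods, the authors aligned reads with HISAT to mRatBN7.2 (Bowtie2 is also named), and they deposited an expected count per gene and rat; the counting program is not given in the sources used here. Values, 37.0% of them whole, were rounded. Totals were 14854389 to 18742274 counts. The macrophage cultures were not analysed here.

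TMM scaling and filterByExpr came first, and then edgeR 4.0.16 (R 4.3.3) fitted a quasi-likelihood model to the groups compared, or to all 23 rats for transection over days and its interaction with day. The adjusted p threshold was 0.05, standard errors were derived from the F statistic, and log2 CPM used a prior count of 2. The fits were also run on simulated counts with known changes, and the share of those changes recovered is not reported here. Replicates are the rats of the labels; nothing states that they came from separate litters or days.

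Alternatives were DESeq2 1.42.0, RLE size factors, no filter, a replicate block, each rat left out, all 23 rats in 1 fit and, added after seeing the data, no rats rich in tooth transcripts. Genes named are the 7, those with the 3 smallest p per role group of a wider list, and those most alike in pattern; Dspp, a neighbour, was named after its values were seen. One gene that the rule on likeness takes is not reported here. The genes and lists were chosen with earlier results of these data known. Promoter windows are from RefSeq on GRCr8, another build than that of the counts, and serve for sequence and gene order only.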

Additional observations from a re-analysis of the deposited data

Results flagged for a closer look

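In 35 sets of 4 rats (each gene in each group of 4), 3 had a rat far from the other 3. Its gap to its nearest neighbour took up most of the group's range in CPM. About 1 in 20 sets would pass this rule by chance if CPM were spread normally within groups. That was not tested, so no chance rate is given for these genes. The gaps were taken on CPM without logs, and whether these rats stand apart on the log2 scale was not tested. Sp7 was 84.2 CPM in an intact rat of day 14, against 21.5 CPM in the next highest. Dlx5 was 58.8 CPM in an intact rat of day 7, against 7.03 CPM in the next highest, and this rat had 799 CPM of enamel and dentin markers. Bglap was 457 CPM in a transected rat of day 3, against 23.9 CPM in the next highest, and this rat had 11791 CPM of those markers. The part of tooth tissue in these levels was not tested. The intact group of day 3 has 3 rats and was not examined in this way.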

How the results depend on the processing

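The number of the 7 genes called was 0 for transection at each day, over days and by day under every alternative. Those numbers over time changed in 4 of 6 comparisons. DESeq2 called 2 from day 3 to 14 (intact), 1 from day 3 to 7 (transected) and 5 from day 7 to 14 (transected). The replicate block called 0 from day 3 to 14 in both arms, as did leaving out the 8 rats rich in tooth markers; all 23 rats in 1 fit called 0 from day 3 to 14 (transected). With each rat left out, both day 3 to 14 counts ranged from 0 to 1. RLE size factors and no filter moved no call of the 7 genes.

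The replicate block takes same-numbered rats as pairs, and these matched in part at most. In no comparison did every pair of them correlate above 0.1, and the mean correlation ran from -0.10 to 0.18. Every rat correlated best with its own number in no comparison. The nearest was transection at day 7, where it held in 3 of 4 pairs, with a mean of 0.18 against -0.06 for other pairs. For transection at day 3 it held in 2 of 3 pairs. These values do not settle whether the numbers mark pairs. Under the block Spp1 had adjusted p = 0.365 (intact) and 0.0671 (transected) by edgeR from day 3 to 14, and genes called over the table were 122 (day 3 to 7) and 0 (both later comparisons) in the intact arm and 2 (day 3 to 7) and 0 (day 7 to 14) in the transected arm. Signs turned for transection at day 3 (Alpl 0.56, Dlx5 0.75), at day 7 (Bglap 0.13) and over days (Sp7 0.25), with 0 of these called.

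Over all genes, DESeq2 called 1 for transection at day 7, 95 at day 14 and 1 over days. In the intact arm it called 2808 (day 3 to 7; edgeR 1002), 325 (day 7 to 14; edgeR 3) and 3375 (day 3 to 14; edgeR 871), and in the transected arm 3217 (edgeR 1524) and 1991 (edgeR 2) in the first and second intervals. All rats in 1 fit called 2606 (intact, day 3 to 14), 2287 (transected, day 3 to 7) and 927 (transected, day 7 to 14). Without the 8 rats the counts were 11, 0 and 23 (intact day 3 to 7, intact day 7 to 14, transected day 3 to 7), 0 (transected day 7 to 14) and 1548 (transected day 3 to 14). With each rat left out they ranged from 254 to 1547, 0 to 28 and 0 to 3133 (intact, day 3 to 7, 7 to 14, 3 to 14) and from 0 to 1359, 0 to 814 and 1620 to 4346 (transected). Without the 8 rats, signs turned at day 3 (Alpl 4.34, Dlx5 2.45, Spp1 -0.25) and over days (Sp7 0.78, Alpl 0.91, Dlx5 0.70).

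Leaving out 1 rat turned the sign of transection at day 3 for Sp7 (-0.50 to 1.16), Alpl (-1.45 to 0.29), Bglap (-0.96 to 3.86), Dlx5 (-1.59 to 1.14) and Spp1 (-0.30 to 0.39), at day 7 for Runx2 (-0.32 to 0.13), Ibsp (-1.17 to 0.59) and Bglap (-0.94 to 0.004), at day 14 for Bglap (-0.21 to 0.95), and over days for Sp7 (-0.29 to 0.27), Alpl (-0.58 to 0.0044), Bglap (-0.25 to 0.86) and Dlx5 (-0.88 to 0.043). The cause of these changes was not tested. Under the block, Alpl and Sp7 had the unadjusted p-values 0.00128 and 0.00213 at day 7 by edgeR, both with adjusted p = 0.996. There were 3 or 4 rats per group, SDs within groups were 0.62 to 2.21 on the log2 scale and each rat had 14854389 counts or more; which of these limits the calls was not tested.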
